A study of Sus scrofa with 6 samples.

Results

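RNF128, which encodes the membrane-bound E3 ubiquitin ligase also known as GRAIL (gene related to anergy in lymphocytes), was examined together with 8 genes of the lymphocyte anergy programme in the abdominal aorta of Wuzhishan miniature pigs. The 9 genes were CBLB, ITCH, EGR2, EGR3, DGKA, DGKZ, OTUB1, USP8 and RNF128 itself. They were taken by symbol from a table of 30477 genes, and all 9 were among the 15384 genes that passed a filter on low values and were tested. RNF128 was chosen by its FPKM difference between the diets in these same libraries, so its values are given as a description with no test. The other 8 genes were named for their known roles, with earlier results of these data in view, and the question was whether they differed between the diets along with RNF128.

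The NC group was 3 male pigs on normal chow, and the HFCF group was 3 male pigs given a diet rich in fat, cholesterol and fructose for 6 months. The labels name no transgene or drug in either group. The labels give an age of 3 to 4 months without saying at which stage, whereas the methods give an older age at purchase. Each pig gave 1 RNA sequencing library of abdominal aorta, a tissue piece that holds every cell type of the vessel wall. Values are FPKM, fragments per kilobase of exon scaled to the mapped reads of the library, in which levels of different genes can be compared per length. The read depth behind a value is unknown. The number of animals (n = 3 per diet) limits the precision.

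Anergy is a state in which a T cell that has met antigen without costimulation stays alive but no longer responds fully. In that state, calcium signalling through NFAT factors, with little help from other pathways, induces the EGR2 and EGR3 transcription factors, the E3 ligases RNF128, CBLB and ITCH, and diacylglycerol kinases, which lower signalling from the antigen receptor. RNF128 protein is itself controlled by ubiquitin, since OTUB1 favours its degradation and USP8 can stabilise it. Most of these genes are not particular to T cells and are also used by macrophages, endothelium and smooth muscle.

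RNF128 was lowly expressed in all 3 NC pigs and among the more abundant transcripts in all 3 HFCF pigs. Its level (ENSSSCG00000012551) was 0.140, 0.121 and 0.650 FPKM in NC pigs 1, 2 and 3, and 100.9, 42.0 and 36.7 FPKM in HFCF pigs 1, 2 and 3. The groups were far apart, the lowest HFCF pig being 56.4-fold above the highest NC pig. NC pig 3 stood above the other NC pigs, and HFCF pig 1 was 2.57 times the mean of the other HFCF pigs. The group means were 0.304 ± 0.300 FPKM for NC and 59.9 ± 35.7 FPKM for HFCF (SD, n = 3 each), a ratio of 197. This ratio was 457 without NC pig 3 and 129 without HFCF pig 1, the pigs that moved it most. On the log2(FPKM + 0.1) scale the difference was 7.30 (SE 0.57), and this scale understates the change of a gene that is low in one group. RNF128 went from the 10.0th, 8.56th and 27.8th percentile of the tested genes in the NC pigs to the 97.5th, 93.5th and 92.5th percentile in the HFCF pigs. It was thus the lowest of the 9 genes by mean in the NC group and the highest in the HFCF group.

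**Figure D1:**
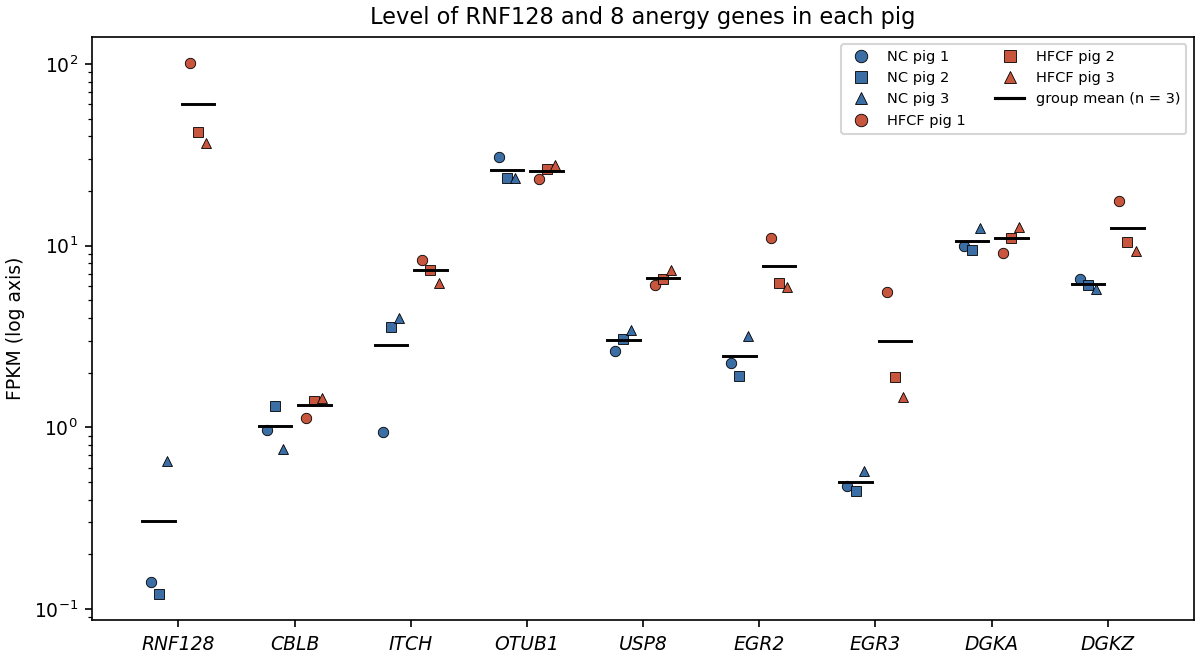
FPKM of the 9 genes in each pig on a log axis, with NC and HFCF pigs as separate points and a black line at each group mean (n = 3). RNF128 lies under 1 FPKM in the 3 NC pigs and between 36.7 and 101 FPKM in the 3 HFCF pigs, whereas OTUB1, DGKA and CBLB overlap between the diets.

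Among the other 8 genes, USP8, EGR2, EGR3 and DGKZ rose on the HFCF diet and none fell (4 higher, 0 lower, 4 not called, limma with Benjamini-Hochberg adjustment over all tested genes, adjusted p under 0.05). The background was high, since 28.9% of all tested genes were called in either direction, 22.8% as higher and 6.16% as lower. In 5 of the 8 genes (the 4 above and ITCH) every HFCF pig was above every NC pig, and this held for 36.1% of all tested genes (groups without overlap in either direction, 48.2%). The median log2 difference of the 8 genes was 1.04, against 0.32 for all tested genes. None of the 8 came near RNF128: its log2 difference exceeded theirs by 5.17 for EGR3, the nearest, and by 7.30 for OTUB1, the farthest. RNF128 was chosen for this difference, and 0.0195% of all tested genes had a larger one. This gap was therefore set by the choice and cannot show whether RNF128 stood alone.

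With the limits named by the study (a fold change of at least 2 with an unadjusted p under 0.05) ITCH was added to the 4, and 25.5% of all tested genes passed. The count of 4 also depended on how the libraries were scaled. The summed FPKM was 330222 to 338690 in the HFCF libraries and 272207 to 287141 in the NC libraries. With median-ratio scaling or rescaling to TPM 3 of the 8 genes were called (USP8, EGR2 and EGR3), and with quantile normalization 2 were called (USP8 and EGR2), while 26.0%, 24.4% and 22.9% of all tested genes were called in these fits. Scaling moved the median log2 difference of all tested genes from 0.32 to -0.0031 (median-ratio), 0.09 (TPM) and -0.08 (quantile), and that of the 8 genes from 1.04 to 0.69, 0.79 and 0.69, respectively. It also moved the share of called genes that were higher from 78.7% to 50.8%, 59.3% and 49.5%, respectively.

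**Figure D2:**
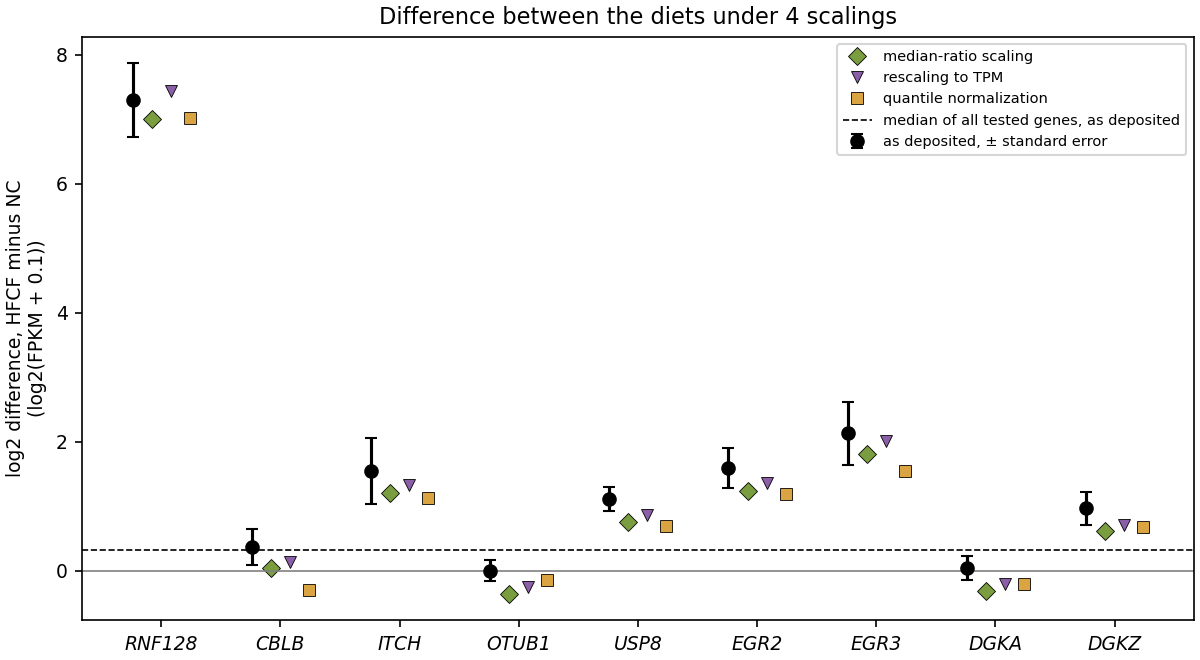
Log2 difference (HFCF minus NC, log2(FPKM + 0.1) scale) of the 9 genes, with black points and standard errors for the deposited values, coloured symbols for the 3 scalings and a dashed line at the median of all tested genes. RNF128 lies at 7.30 in the deposited values and at 7.45 with TPM, the highest of the scalings, whereas EGR3, the next largest, lies at 2.13, and CBLB and DGKA change sign with scaling.

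The other E3 ligases of the programme were CBLB and ITCH. CBLB (ENSSSCG00000022486), a RING ligase that raises the threshold for T cell activation, had 0.971, 1.32 and 0.762 FPKM in the NC pigs and 1.13, 1.39 and 1.44 FPKM in the HFCF pigs. The groups overlapped and all 6 values were low. Its log2 difference was 0.37, with a 95% interval of -0.29 to 1.03 (adjusted p = 0.354, limma), so these animals leave room for a log2 rise of up to that upper bound. ITCH (ENSSSCG00000007280), a HECT ligase that acts on signalling proteins of activated T cells, had 0.946, 3.59 and 4.02 FPKM in the NC pigs and 8.33, 7.38 and 6.19 FPKM in the HFCF pigs. Every HFCF pig was above every NC pig, and NC pig 1 was well below the other NC pigs. The mean went from 2.85 ± 1.66 to 7.30 ± 1.07 FPKM (SD, n = 3), and the log2 difference of 1.55 (SE 0.51) missed the threshold (adjusted p = 0.0589, limma). Without NC pig 1 the log2 difference was smaller, at 0.92, and passed the threshold (adjusted p = 0.0392, limma), and ITCH also passed with a pseudocount of 1 (adjusted p = 0.0477, limma).

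The deubiquitinases of RNF128 differed from each other. OTUB1 (ENSSSCG00000013045), the enzyme that favours loss of RNF128 protein, had 30.7, 23.7 and 23.6 FPKM in the NC pigs and 23.2, 26.4 and 27.9 FPKM in the HFCF pigs. The groups overlapped fully and the means were 26.0 ± 4.07 and 25.8 ± 2.36 FPKM (SD, n = 3). The 95% interval of its log2 difference was -0.38 to 0.38 (adjusted p = 0.995, limma). USP8 (ENSSSCG00000004639), which deubiquitinates RNF128 and endosomal sorting proteins, had 2.63, 3.08 and 3.42 FPKM in the NC pigs and 6.08, 6.56 and 7.31 FPKM in the HFCF pigs. The groups did not overlap and the pigs of each diet lay close together. The mean rose from 3.04 ± 0.40 to 6.65 ± 0.62 FPKM (SD, n = 3), a ratio of 2.19 and a log2 difference of 1.11 (SE 0.18, adjusted p = 0.00632, limma). USP8 passed the threshold in 15 of 15 alternative fits, with adjusted p from 0.00478 to 0.0349 (limma). Even so, 19.4% of all tested genes had a larger log2 difference than USP8.

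The EGR factors, zinc-finger regulators that are induced by NFAT and drive part of the anergy programme, both rose. EGR2 (ENSSSCG00000010224) had 2.26, 1.91 and 3.20 FPKM in the NC pigs and 11.1, 6.22 and 5.92 FPKM in the HFCF pigs. HFCF pig 1 was the highest, and the groups did not overlap. Its mean rose from 2.46 ± 0.66 to 7.74 ± 2.89 FPKM (SD, n = 3), a ratio of 3.15 and a log2 difference of 1.59 (SE 0.31, adjusted p = 0.0109, limma), and it was called in 15 of 15 alternative fits. EGR3 (ENSSSCG00000009630) had 0.474, 0.446 and 0.577 FPKM in the NC pigs and 5.56, 1.89 and 1.48 FPKM in the HFCF pigs. The groups did not overlap, and HFCF pig 1 was 3.30 times the mean of the other HFCF pigs, a wider gap than in RNF128. Its mean rose from 0.499 ± 0.069 to 2.97 ± 2.25 FPKM (SD, n = 3), with a log2 difference of 2.13 (SE 0.48, adjusted p = 0.0184, limma). EGR3 was called in 12 of 15 alternative fits, and was lost with quantile normalization (adjusted p = 0.0585), without NC pig 1 (adjusted p = 0.0665) and without NC pig 2 (adjusted p = 0.0573, all limma). Of the 8 tested genes EGR3 had the largest log2 difference, and 4.96% of all tested genes had a larger one.

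The diacylglycerol kinases remove diacylglycerol, the lipid messenger that carries the antigen receptor signal to RAS and protein kinase C. DGKA (ENSSSCG00000000370), the isoform most closely tied to anergy, had 9.91, 9.48 and 12.4 FPKM in the NC pigs and 9.17, 11.1 and 12.7 FPKM in the HFCF pigs. The groups overlapped, and the 95% interval of the log2 difference was -0.39 to 0.49 (adjusted p = 0.875, limma). DGKZ (ENSSSCG00000013259), the other isoform of T cells, had 6.53, 6.06 and 5.77 FPKM in the NC pigs and 17.7, 10.5 and 9.35 FPKM in the HFCF pigs. HFCF pig 1 was again the highest, and the groups did not overlap. The mean rose from 6.12 ± 0.38 to 12.5 ± 4.53 FPKM (SD, n = 3), with a log2 difference of 0.97 (SE 0.25, adjusted p = 0.0293, limma). This call was the least stable of the 4: it was kept in 8 of 15 alternative fits, over which its adjusted p ran from 0.0258 to 0.11 (limma). The fits that lost it were the 3 scalings and those that left out NC pig 1, NC pig 2, NC pig 3 or HFCF pig 2.

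The order of the 9 genes by mean FPKM per length changed with the diet. In the NC pigs the order was OTUB1, DGKA, DGKZ, USP8, ITCH, EGR2, CBLB, EGR3 and RNF128, in which USP8, ITCH and EGR2 overlapped with their neighbours, as did EGR3 and RNF128. In the HFCF pigs it was RNF128, OTUB1, DGKZ, DGKA, EGR2, ITCH, USP8, EGR3 and CBLB, in which the genes from DGKZ to USP8 overlapped with their neighbours. HFCF pig 1 was the highest of the HFCF pigs in 5 of the 9 genes, against 42.5% of all tested genes. Without this pig 4 of the 8 tested genes were still called, the same 4 genes, with 23.7% of all tested genes called.

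The genes whose pattern over the 6 libraries lay closest to that of RNF128 were AMBN, ACP5, SLC2A5, TREM2 and SPP1. Closeness was the root mean square distance between log2(FPKM + 0.1) values centred on each gene's own mean, over 10083 named genes, and it uses the same libraries that chose RNF128. ACP5, the tartrate-resistant acid phosphatase of osteoclasts and macrophages, lay at a distance of 0.375 and had 0.166, 0.329 and 1.63 FPKM in the NC pigs and 133, 80.7 and 49.3 FPKM in the HFCF pigs. TREM2, a lipid-sensing receptor of macrophages, lay at 0.602 and had 0.150, 0.185 and 0.340 FPKM in the NC pigs and 40.6, 23.7 and 17.3 FPKM in the HFCF pigs. AMBN (an enamel matrix protein, distance 0.335), SLC2A5 (the fructose transporter, 0.578) and SPP1 (osteopontin, 0.705) shared the raised value of NC pig 3 within their group and the raised value of HFCF pig 1.

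Markers of several cell types moved with the diet too. In the same whole tissue, more cells of a type and more RNA per cell cannot be told apart. All 11 macrophage markers found in the table rose (11 of 11, limma, adjusted p under 0.05; 10 of 11 under each scaling), and their summed level was 46.5 to 49.8 FPKM in the NC pigs and 542.0 to 1300 FPKM in the HFCF pigs, with none at 0. For comparison, 22.8% of all tested genes were called higher and 6.16% lower. Markers of lipid-laden macrophages rose in 4 of 8, with sums of 206.8 to 325.9 FPKM and 1247 to 3060 FPKM. Of the 10 T cell markers tested 2 rose, IL7R and CD2 (adjusted p = 0.00965 and 0.0153, limma), and in 8 of them every HFCF pig was above every NC pig (20% called against 28.9% of all tested genes, without overlap against 36.1%, median log2 difference 1.84, or 1.17 over 9 genes without HFCF pig 1). The call of CD2 was lost without NC pig 1 (adjusted p = 0.0585, limma). The summed level of the T cell list was 1.11 to 1.81 FPKM in the NC pigs and 4.94 to 23.7 FPKM in the HFCF pigs, with THEMIS at 0 in every library but that of HFCF pig 1. Contractile smooth muscle markers, the defining genes of the labelled tissue, were abundant in every library and fell in 6 of 8, with sums of 15914 to 22729 FPKM in the NC pigs and 7997 to 12892 FPKM in the HFCF pigs. With the replicate block 4 of these 8 were called lower, as were 4 without HFCF pig 1. Without NC pig 1 the calls of MYH11, ACTA2, CNN1 and SMTN were lost. Endothelial markers were called in 0 of 8 (limma, 2 at an unadjusted p under 0.05), and among fibroblast markers 1 of 8 rose. Among adipocyte markers 1 of 7 fell, with sums of 136.6, 191.6 and 43.6 FPKM in the NC pigs and 29.9 to 60.4 FPKM in the HFCF pigs, so that NC pig 3 lay within the HFCF range. The marker that fell, PLIN4, was called in 9 of 15 alternative fits. It was lost with the replicate block and when any single pig except HFCF pig 3 was left out. With median-ratio scaling and with TPM 2 of the 7 adipocyte markers were called lower.

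The level of RNF128 was also set beside these marker sums, as a description that reuses the values by which the gene was chosen. Per FPKM of summed macrophage markers the NC pigs had 0.00302, 0.00259 and 0.0131 and the HFCF pigs 0.0776, 0.0746 and 0.0677. The HFCF pigs lay close together on this measure, HFCF pig 1 included, and all were above the NC pigs, with an 11.8-fold ratio of means (26.2-fold without NC pig 3). Per FPKM of summed lipid-laden macrophage markers the NC pigs had 0.000541, 0.000373 and 0.00314 and the HFCF pigs 0.0330, 0.0272 and 0.0294. The HFCF pigs lay close together here too, with a 22.1-fold ratio of means (65.3-fold without NC pig 3). For summed B and plasma cell markers the ratio of means was 43.1-fold (84.6-fold without NC pig 3). Per FPKM of summed T cell markers the NC pigs had 0.126, 0.0833 and 0.359 and the HFCF pigs 4.26, 8.41 and 7.42, a 35.3-fold ratio of means (63.9-fold without NC pig 3). The part of cell numbers in the level of RNF128 and of the other 8 genes was not tested.

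**Figure D3:**
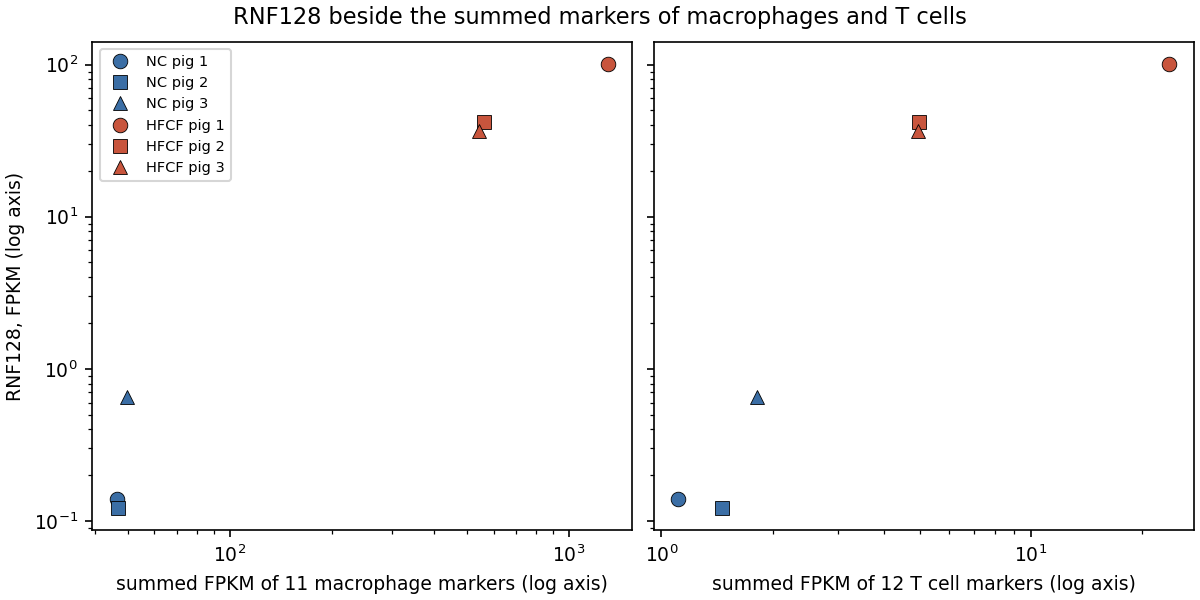
Level of RNF128 in each pig against the summed FPKM of macrophage and T cell markers in the same pig, both on log axes. The 3 HFCF pigs lie above and to the right of the 3 NC pigs in both panels, and the points are pigs, not replicated measurements of a relation.

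In a longer list of other genes tied to anergy, calls were about as frequent as among all tested genes. Of 22 tested genes 6 rose and 0 fell (27.3% called, median log2 difference 0.58), and under the scalings 2 or 3 rose and 1 fell. Without HFCF pig 1, 3 of 21 rose and 1 fell, and with the replicate block 3 rose. NAB1, a co-repressor that binds EGR factors, had 2.59, 4.13 and 4.14 FPKM in the NC pigs and 9.34, 9.51 and 9.30 FPKM in the HFCF pigs, a log2 difference of 1.38 (SE 0.22, adjusted p = 0.00566, limma). The groups did not overlap, and the HFCF pigs were nearly equal. NEDD4, a HECT ligase of the same family as ITCH, went from 1.26 ± 0.18 to 3.36 ± 0.18 FPKM (SD, n = 3), a log2 difference of 1.35 (adjusted p = 0.00515, limma), and NDFIP2, an adaptor that activates such ligases, from 0.952 ± 0.070 to 2.74 ± 0.95 FPKM (1.38, adjusted p = 0.0130, limma), the latter lost with quantile normalization (adjusted p = 0.0749, limma). PELI1, NFATC3 and NDFIP1, named here although they fall outside the rule for named genes, rose by 1.03, 0.67 and 0.51 on the log2 scale (adjusted p = 0.0347, 0.0498 and 0.0372, limma), and none of these 3 calls held under any of the scalings.

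Receptors and factors of regulatory or exhausted T cells on this list were low. CTLA4 was at or under 0.0987 FPKM in every library, and FOXP3 at or under 0.158 FPKM. PDCD1 reached 0.383 FPKM in HFCF pig 1 and was at or under 0.0851 FPKM in the other libraries. These 3 genes did not pass the filter on low values. LAG3 passed it, with 0.0187, 0.0432 and 0.154 FPKM in the NC pigs and 0.287, 0.507 and 0.118 FPKM in the HFCF pigs, which overlapped (adjusted p = 0.131, limma). All 4 are named after their values were seen. NR4A1, an orphan receptor of early activation that is also used by vessel wall cells, was the most abundant gene of the list, and its means of 290.1 ± 118.6 and 289.4 ± 132.7 FPKM (SD, n = 3) overlapped.

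Genes of antigen receptor signalling had a larger median difference, though few passed the test. Of 18 tested genes 3 rose and 0 fell (16.7% called against 28.9% of all tested genes, median log2 difference 1.42, or 0.94 over 16 genes without HFCF pig 1), and in 13 of the 18 every HFCF pig was above every NC pig, against 36.1% of all tested genes. VAV1, an exchange factor of blood cells, went from 0.638 ± 0.079 to 11.8 ± 5.84 FPKM (SD, n = 3), a ratio of 18.5 (adjusted p = 0.00109, limma). LCP2, the adaptor SLP-76, went from 0.266 ± 0.078 to 5.77 ± 4.17 FPKM (SD, n = 3), a log2 difference of 3.81 (adjusted p = 0.00272, limma). GRB2, an adaptor found in most cells and the most abundant gene of the list, had means of 25.1 ± 3.08 and 38.9 ± 13.7 FPKM (SD, n = 3; adjusted p = 0.118, limma). VAV1 and LCP2 are also expressed by macrophages, and the part of macrophages in their levels was not tested.

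Proteins reported as substrates of RNF128 went in both directions. Of 9 genes CORO1A and CD83 rose and CD151 fell (33.3% called against 28.9% of all tested genes, median log2 difference -0.15), and under the 3 scalings 2 or 3 genes of this list were lower, whereas with the replicate block none was. CORO1A, an actin regulator of leukocytes, had 1.27, 1.51 and 1.87 FPKM in the NC pigs and 43.4, 13.2 and 8.98 FPKM in the HFCF pigs (log2 difference 3.41, SE 0.54, adjusted p = 0.00583, limma). CD83, an activation marker of dendritic cells, had a log2 difference of 2.68 (adjusted p = 0.00998, limma). CD151, a tetraspanin that was the most abundant gene of this list, had 593.0, 491.9 and 502.5 FPKM in the NC pigs and 191.8, 325.4 and 293.7 FPKM in the HFCF pigs, a ratio of 0.511 (adjusted p = 0.0189, limma), and this call was lost with the replicate block and without NC pig 1 (adjusted p = 0.0763, limma). These are transcript levels and do not measure the proteins on which the ligase acts.

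The relatives of RNF128 that were tested had smaller differences, as almost every tested gene did, since RNF128 was chosen for its difference. RNF128 belongs to the protease-associated RING ligases, membrane proteins with a lumenal domain and a cytoplasmic RING finger. Of the 6 other members tested, RNF13 rose from 2.76 ± 0.62 to 6.48 ± 1.67 FPKM (SD, n = 3; log2 difference 1.20, adjusted p = 0.0158, limma), and RNF150 fell from 2.17 ± 0.45 to 1.10 ± 0.17 FPKM (SD, n = 3; log2 difference -0.91, adjusted p = 0.0362, limma). The share called, 33.3%, was near the 28.9% of all tested genes, and RNF13 was lost with quantile normalization, the replicate block and without NC pig 1. RNF150 was called in 7 of 15 alternative fits and lost whenever any single pig was left out. The other 4 were not called, among them RNF167, the most abundant, at 52.7 ± 0.95 and 53.4 ± 6.86 FPKM (SD, n = 3). The median log2 difference of the 6 was 0.0092, under that of all tested genes, and RNF130, RNF133, RNF148 and ZNRF4 were not analysed here.

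The relatives of the other 8 genes were mixed, against 22.8% of all tested genes called higher and 6.16% lower. In the CBL and NEDD4 ligase families 2 of 7 relatives rose, NEDD4 and WWP1 (log2 difference 1.38, adjusted p = 0.0271, limma). WWP1 was called in 7 of 15 alternative fits and in none of the 3 scalings. WWP2, the most abundant of these ligases, had 66.9, 45.8 and 59.0 FPKM in the NC pigs and 20.5, 42.2 and 11.4 FPKM in the HFCF pigs. The groups did not overlap, and its log2 difference of -1.39 missed the threshold (adjusted p = 0.053, limma), while with median-ratio scaling and with TPM 1 gene of these families was called lower. In the EGR family with its co-repressors 1 of 3 relatives rose, NAB1, whereas EGR1, the most abundant, overlapped at 438.0 ± 123.5 and 516.8 ± 248.9 FPKM (SD, n = 3) and EGR4 was listed at 0 in every library. Of 5 relatives in the diacylglycerol kinase family 0 rose and 1 fell (limma), and this gene, DGKG, had 28.6, 21.1 and 9.42 FPKM in the NC pigs and 4.93, 6.24 and 8.63 FPKM in the HFCF pigs (log2 difference -1.46, SE 0.42, adjusted p = 0.0383, limma). The groups did not overlap, but NC pig 3 was close to HFCF pig 3, and DGKG was called in 8 of 15 alternative fits. With each of the 3 scalings 2 of the 7 tested kinases were called lower and 0 higher. DGKA and DGKZ were among the 7 tested, but neither was called in these fits. Among the partners of OTUB1 and USP8, 2 of 8 rose: STAM2, which works with USP8 on endosomes (log2 difference 0.90, adjusted p = 0.0207, limma), and UBE2D2, a ubiquitin-conjugating enzyme that OTUB1 binds (0.53, adjusted p = 0.0341, limma). Neither call held under any of the 3 scalings.

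**Figure D4:**
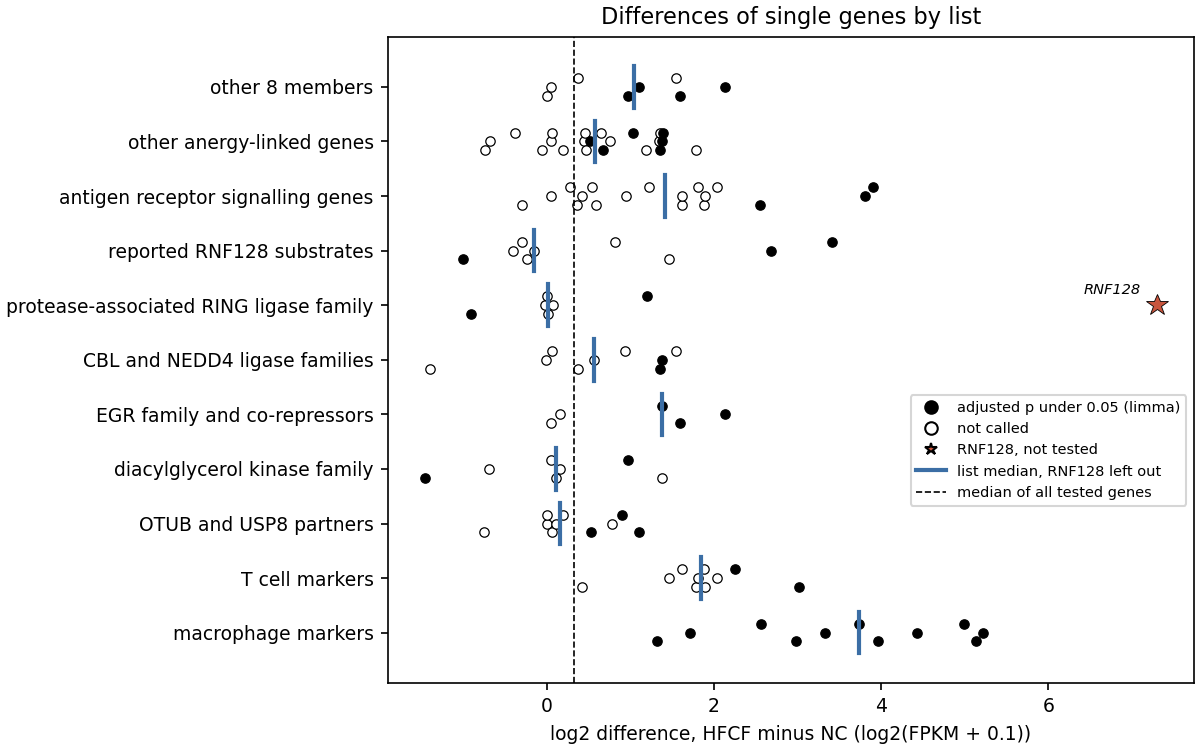
Log2 difference (HFCF minus NC) of every tested gene in the lists, 1 point per gene, with filled points for an adjusted p under 0.05 (limma), blue bars for list medians without RNF128 and a dashed line for the median of all tested genes. RNF128, drawn as a star and chosen for this difference, lies at 7.30, to the right of every point of these lists.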

How the data were processed

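Total RNA of abdominal aorta from 3 NC and 3 HFCF pigs was sequenced by the authors, 1 library per pig. Per the labels, cutadapt 1.9, FastQC and HISAT2 were used, and the methods name StringTie and the pig build Sscrofa10.2. The authors deposited FPKM per gene, in which 0.0001 stands for 0. The members and gene lists were chosen with earlier results of these data known. Here log2(FPKM + 0.1) was fitted with limma 3.58.1 in R 4.3.3 (variance trend) on genes with a mean of at least 0.1 FPKM, with Benjamini-Hochberg adjustment over 15384 genes, and a gene was called at an adjusted p under 0.05. The fit was tested on simulated data. Symbols came from the file, and 4 of 161 listed genes found were named through a RefSeq-derived gene table. In each list the text names up to 3 called genes that rose most and 2 that fell most, without overlap and at a mean of at least 1 FPKM, the most abundant gene, and the 5 genes closest to RNF128. Alternatives changed the pseudocount, filter, scaling, variance trend, thresholds and replicate block, and left out each pig; the ratios of RNF128 without single pigs were added after seeing the data. FPKM scaling makes each value depend on the rest of its library, and reads shared between related genes could not be separated. Coordinates and sequences are not used here. Some single genes of the lists are counted but not reported here.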

Additional observations from a re-analysis of the deposited data

How the results depend on the processing

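The log2 difference of RNF128 was 7.30, fell to 5.42 with a pseudocount of 1, and ranged from 6.85 to 7.87 when single pigs were left out. Of the other 8 genes 4 were called, against 5 with a pseudocount of 1, 2 with quantile normalization and 2 to 4 with each pig left out. Over all tested genes 4453 were called, against 2772 with the replicate block and 2421 to 3596 with each pig left out. Of the 73 other listed genes 18 were called (24.7%, against 28.9% of all tested genes). The count was 8 with the replicate block and 8 to 15 with each pig left out. Replicate numbers did not pair the pigs (correlations of same-numbered pigs 0.0206, -0.0795 and -0.0724), and the block kept the count of 4. The log2 difference changed sign in 3 genes that were never called: DGKA and OTUB1, which lay near 0, and CBLB, which lay at 0.37. For DGKA the log2 difference was -0.31 with median-ratio scaling, -0.21 with quantile normalization, -0.21 with TPM, and it ranged from -0.063 (without HFCF pig 3) to 0.17 with single pigs left out, with -0.03 without NC pig 2. For CBLB it was -0.30 with quantile normalization, and for OTUB1 it was -0.36 with median-ratio scaling, -0.26 with TPM and -0.15 with quantile normalization, and with single pigs left out it ranged from -0.065 to 0.12 (without NC pig 1), with 0.07 without HFCF pig 1. Median-ratio scaling divided the HFCF libraries by 1.12 to 1.17 and the NC libraries by 0.856 to 0.917, which lowers log2 differences by construction. The cause of the other changes was not tested. Of 128 values of the 8 genes under alternatives, 107 kept direction and side of the threshold. With 3 pigs per diet and unknown read depth, small changes of CBLB, DGKA and OTUB1 could not be detected.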

Other observations

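Immunoglobulin gene segments, a sign of antibody-producing cells, were chosen for a look after their values were seen. Their summed level was 0.804, 0.671 and 2.36 FPKM in the NC pigs and 68.5, 6.66 and 7.78 FPKM in the HFCF pigs, given with no test. HFCF pig 1 stood far above the others. This pig was also the highest HFCF pig for RNF128, as it was for 42.5% of all tested genes. Segments of the T cell receptor summed to at most 0.607 FPKM in any library. CD79A, a chain of the B cell receptor, rose from 8.36 ± 2.36 to 36.1 ± 1.96 FPKM (SD, n = 3; log2 difference 2.14, adjusted p = 0.00178, limma), and it was nearly equal in the 3 HFCF pigs.

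Among 61 other tested genes with an RNF symbol, 15 rose and 5 fell (32.8% called). In the KEGG list of ubiquitin mediated proteolysis 37 of 127 tested genes rose and 10 fell (37.0% called), and in the KEGG list of T cell receptor signalling 17 of 82 rose and 3 fell (24.4% called), against 28.9% of all tested genes.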
